A study of Drosophila mojavensis with 137 samples.

Results

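The comparison described here is the rearing cactus in mated females of Drosophila mojavensis from Punta Prieta, Baja California, organ pipe against agria. It comprises the 9 arrays whose titles name that population, mated females and an egg-to-adult development time of 15 or 16 days, of 137 arrays in the series. Organ pipe has 5 arrays, 2 of flies that developed in 15 days and 3 of flies that developed in 16 days. Agria has 4 arrays, 3 of 15 days and 1 of 16 days. All flies of both groups were wild-type, came from the same source population, were raised as larvae on fermented cactus tissue in bottle cultures at moderate density and were measured as whole animals after mating. The series crosses 2 populations, 2 cacti, both sexes, mated and virgin flies and several development times, on 1-colour NimbleGen arrays of 14528 transcripts. The labels do not say how many flies went into an array or whether replicates came from separate cultures, so each p-value reflects the spread from array to array alone, which may be technical, and the number of arrays limits the precision.

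Drosophila mojavensis breeds in the rotting tissue of columnar cacti. Agria is its main host in Baja California, where Punta Prieta lies, and organ pipe is its main host on the Sonoran mainland, so the Punta Prieta flies on organ pipe were raised on the cactus that is not their usual one. Rots of different cacti differ in sugars, yeasts and toxic plant compounds, and a larva must digest and detoxify what it eats. In Drosophila, mating sets off egg production and changes in feeding and immunity in the female, and the ovary is a large part of a whole female's RNA. The comparison asks whether the cactus a female was raised on shows in her RNA as a mated adult.

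No transcript passed the test for a difference between the cacti in these females. With limma, Benjamini-Hochberg adjustment over all 14528 transcripts and the development day as a term, 0 had an adjusted p below 0.05 (0% of those tested), and the smallest adjusted p was 0.979. Without adjustment 97 had p below 0.05 (0.668%), of which 44 were higher on organ pipe (0.303%) and 53 lower (0.365%), where 5% of all transcripts would be 726. The differences were small. All values are log2 expression values, and a difference of 1 is a 2-fold change. The median difference, organ pipe minus agria, was -0.0073, and the median size of a difference was 0.095. Only 36 transcripts had an estimate over 0.5 higher on organ pipe (0.248%) and 22 one over 0.5 lower (0.151%).

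The intervals say how large a difference could have been missed. For 14204 transcripts, 97.8%, the 95% interval of the cactus difference lay within 2-fold in either direction, and for 9556, 65.8%, within 1.41-fold. The median half-width of an interval was 0.30. Classes of sex bias, defined below, differed in this. Of 1471 strongly male-biased transcripts 449 lay within 1.41-fold (30.5%), the lowest share of the 5 classes at that limit, against 3675 of 4847 moderately female-biased ones (75.8%). Within 2-fold the lowest share was that of the strongly female-biased transcripts, 90.8%, against 95.9% of the strongly male-biased ones. Among the 2906 brightest transcripts the median residual SD was 0.12, and among the 2906 dimmest it was 0.26. With the 15 day arrays only, 2 on organ pipe and 3 on agria, the share within 2-fold was 84.4% and that within 1.41-fold was 33.8%.

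**Figure D1:**
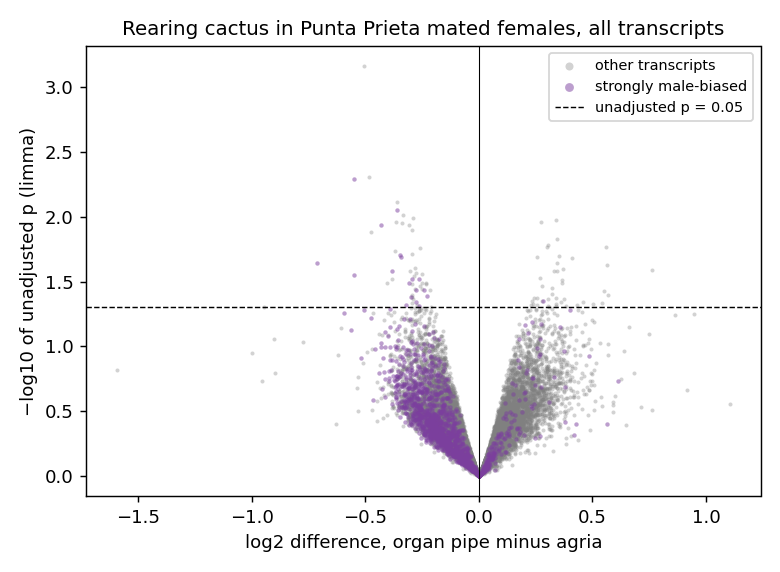
Each point is 1 of 14528 transcripts, with the log2 difference of organ pipe minus agria on the x axis and −log10 of the unadjusted limma p on the y axis. The points above the dashed line are the 97 transcripts with an unadjusted p below 0.05, none of which passed after adjustment, and the strongly male-biased transcripts (purple) lie mostly left of 0.

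The highest and the lowest estimate were those of transcripts that varied widely between arrays of the same cactus. The highest, 1.11 (95% interval -1.05 to 3.26), belonged to a moderately female-biased transcript at 12.59, 9.82, 11.33, 9.22 and 12.45 on organ pipe, against 11.88, 8.09, 9.95 and 10.09 on agria. The lowest, -1.59 (95% interval -3.89 to 0.70), belonged to a strongly female-biased transcript at 11.34, 11.33, 10.97, 8.92 and 14.76 on organ pipe, against 13.56, 12.13, 12.93 and 13.24 on agria. The groups overlapped in both cases, and for the second the organ pipe arrays reached from below to above the agria arrays. Here and below the arrays of a cactus are given in the order of 15 days before 16 days and then of replicate number.

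For 61 transcripts the 2 groups of arrays did not overlap. In 25 of them all 5 organ pipe arrays lay above all 4 agria arrays (0.172% of transcripts), and in 36 all lay below (0.248%). Arrays assigned to the cacti at random would give 0.794% each way. The differences of those 25 were 0.062 to 0.43, and those of the 36 were 0.080 to 0.55 in size, so 8 of the 25 and 20 of the 36 had an unadjusted p below 0.05. Of the 36, 20 have little sex bias, 9 are strongly male-biased, 5 moderately female-biased and 2 moderately male-biased, and of the 25, 12 have little sex bias and 10 are moderately female-biased. Of all 14528 transcripts, 6584 have little sex bias and 4847 are moderately female-biased, while 1471 are strongly and 1300 moderately male-biased. The transcript IDs of the files are not paired there with gene names, so transcripts are named by ID, at most 2 in each direction, those with the largest moderated t among the non-overlapping ones. No sequence or function can be given for them.

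FBtr0161657 had the smallest p of all. It was at 10.90, 10.91, 10.66, 10.60 and 10.77 on organ pipe, against 11.40, 11.18, 11.30 and 11.37 on agria. The SD was 0.141 on organ pipe and 0.097 on agria. The nearest arrays of the 2 cacti were at 10.91 and 11.18, and the choice among non-overlapping transcripts required such a gap. The difference in limma was -0.51 (SE 0.102, unadjusted p = 0.000689, adjusted p = 0.979). Punta Prieta virgin females went the other way for this transcript, with a difference of 0.16 (SE 0.141), at a median of 11.38 on organ pipe (10.76 to 11.61, n = 6) against 11.10 on agria (10.83 to 11.60, n = 8), and the groups overlapped there.

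FBtr0162570 was also lower on organ pipe, at 9.12, 9.29, 8.87, 9.09 and 9.13, against 9.43, 9.99, 9.75 and 9.46 on agria. The agria arrays spread over a wider range (SD 0.264) than the organ pipe arrays (SD 0.152). Its limma difference was -0.49 (SE 0.133, adjusted p = 0.979). In virgin females of the population the difference was -0.031 (SE 0.210), far within its error.

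FBtr0162901, a moderately male-biased transcript, was at 12.02, 12.05, 12.35, 12.31 and 12.09 on organ pipe, against 11.85, 11.81, 11.84 and 11.69 on agria. Its difference was 0.34 (SE 0.106, adjusted p = 0.979 in limma), and in virgin females it was -0.018 (SE 0.137). FBtr0168287, moderately female-biased, was at 9.59, 9.51, 9.60, 9.51 and 9.56 on organ pipe, against 9.27, 8.87, 9.30 and 9.31 on agria. The organ pipe arrays had an SD of 0.0458, and 1 agria array, that of 15 days, replicate 2, lay far below the other 3. The difference was 0.34 (SE 0.115, adjusted p = 0.979 in limma). Of the 4 named transcripts it alone had a difference of like size and direction in virgin females, 0.39 (SE 0.148), at a median of 9.75 on organ pipe (9.44 to 9.95, n = 6) against 9.30 on agria (9.02 to 10.04, n = 8). That difference did not pass either (adjusted p = 0.142, limma).

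**Figure D2:**
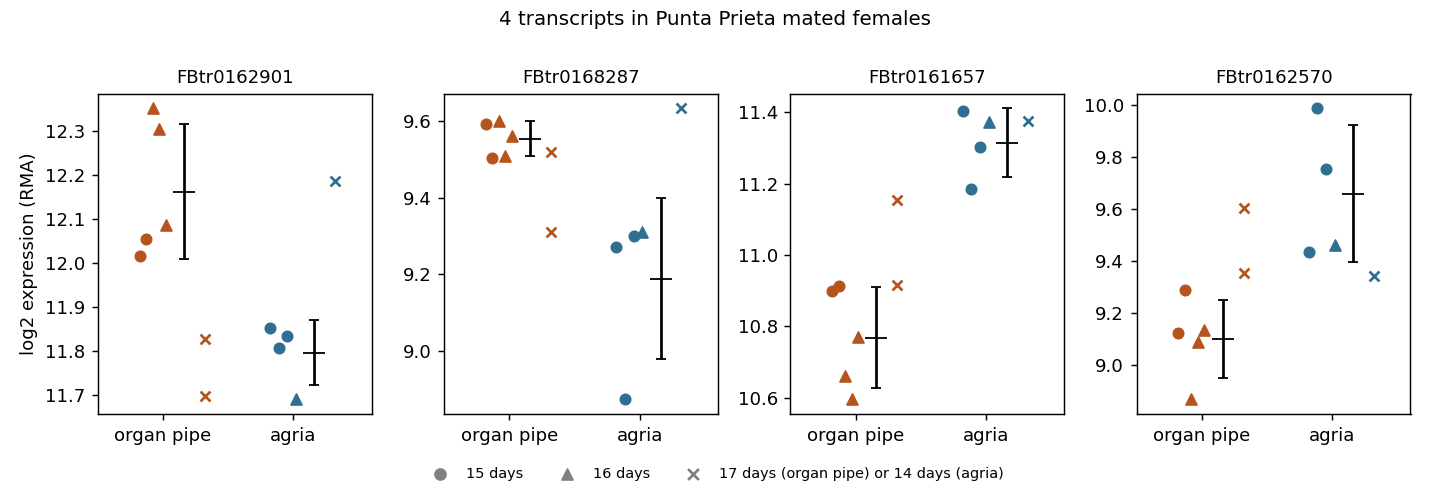
Log2 expression on the y axis (a scale of its own in each panel) of the 4 named transcripts, organ pipe left and agria right. Circles are 15 day and triangles 16 day arrays, the bar is the mean ± SD of these arrays (n = 5 organ pipe, n = 4 agria), and crosses are arrays of 17 days (organ pipe) and 14 days (agria), which the test did not use. The circles and triangles of the 2 cacti do not overlap in any panel, while some crosses lie on the side of the other cactus.

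Punta Prieta mated females of other development times offer values that the choice of these transcripts did not use, on organ pipe 2 arrays of 17 days and on agria 1 array of 14 days. In them cactus and development time cannot be told apart. FBtr0161657 kept its order, at 11.15 and 10.91 on organ pipe against 11.38 on agria. FBtr0162901 had the opposite order, at 11.83 and 11.70 on organ pipe against 12.19 on agria, and so had FBtr0168287, at 9.52 and 9.31 against 9.63. For FBtr0162570 the 17 day organ pipe arrays, at 9.35 and 9.60, lay above the agria array at 9.34. With all 12 mated female arrays and the day as a linear term, 0 transcripts passed in limma (93 at an unadjusted p below 0.05).

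What set the arrays apart was variation within the cacti. The first principal component of the 9 arrays held 56.6% of the variance, and its ends were both agria arrays of 15 days: replicate 1 had a score of -30.8, and replicates 2 and 3 had scores of 31.1 and 37.8. The organ pipe arrays lay between them, from -23.9 to 11.7, and the agria array of 16 days was at 1.94. Summed over transcripts, the cactus took up 8.71% of the variance and the day 12.4%. With 9 arrays a term takes up part of the variance even without an effect. The fit of both terms left 74.9%. That share holds the variation among arrays of the same cactus and day and any cactus difference that changes with the day. The agria array of 15 days, replicate 1, correlated more with the organ pipe array of 15 days, replicate 1 (r = 0.992 across transcripts) than with the other agria arrays of 15 days (r = 0.955 and 0.947). Over all pairs, the median r was 0.987 within organ pipe, 0.974 within agria and 0.982 between the cacti. The SD among the agria arrays was larger than that among the organ pipe arrays for 10748 transcripts (74.0%), with medians of 0.16 on organ pipe and 0.23 on agria.

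**Figure D3:**
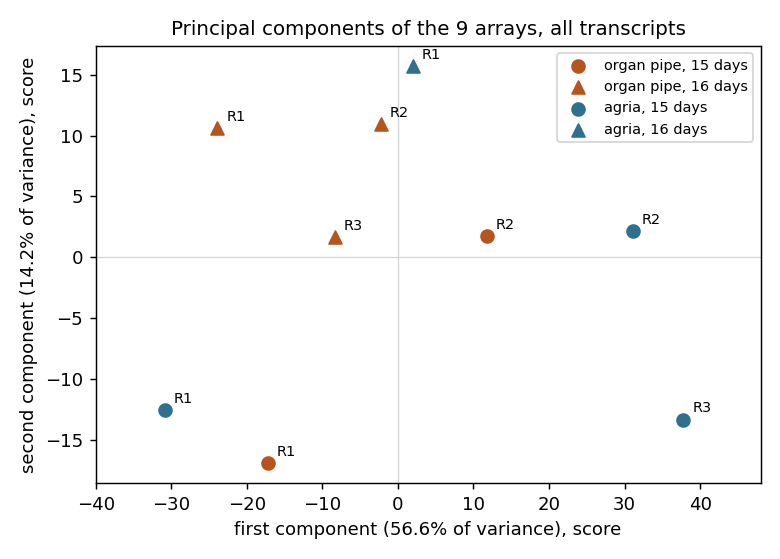
Scores of the 9 arrays on the first (x axis, 56.6% of the variance) and second (y axis, 14.2%) principal component of all transcripts, labelled by replicate number, with organ pipe in orange and agria in blue, circles for 15 and triangles for 16 days. The organ pipe arrays lie between the agria arrays of 15 days on the x axis, and the 16 day arrays all lie above 0 on the y axis. So do the 15 day arrays of replicate 2, at 1.72 on organ pipe and 2.17 on agria.

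The first component followed the mean level of the strongly male-biased transcripts, which a female expresses at a low level. Classes of sex bias were taken from virgin Punta Prieta flies of 15 and 16 days, none of them among the 9 arrays. Strongly biased means a difference between the sexes of over 4-fold, moderately biased one between 0.5 in log2 and 4-fold, and transcripts that males express at high levels include those of the testis and the accessory glands. Their mean level in an array was 9.35, 9.63, 9.27, 9.49 and 9.42 on organ pipe, against 9.22, 9.84, 9.92 and 9.50 on agria. The order of the arrays by this level is the order of their scores on the first component. The component was not made up of this class alone. Of the 1000 transcripts with the largest loadings on it in size, 345 were strongly male-biased (34.5%), against 10.1% of all transcripts. Most of the 1000 were thus of other classes. In the agria array of 15 days, replicate 1, 7427 of all 14528 transcripts were lower than the mean of replicates 2 and 3. By more than 2-fold, 949 of all transcripts were lower and 383 higher. Of the 1471 strongly male-biased transcripts 1304 were lower, with a median difference of -0.76. By more than 2-fold, 400 of the 1471 were lower and 14 higher. The level is far from that of a male in all 9 arrays: in virgin males it was 12.52 to 13.13, and the strongly female-biased transcripts stood at 12.51 to 12.93 in the 9 arrays, against 9.69 to 9.98 in virgin males, so these levels go with the labelled sex. Of the 1471 strongly male-biased transcripts, 776 are among the 2906 dimmest of all in these arrays and 570 among the 2905 next. The part of this dimness in their level was not tested. In whole flies, fewer cells of a type and less RNA per cell cannot be told apart. The SD of all log2 values in an array ran the opposite way, at 1.83 in the agria array of 15 days, replicate 1, and 1.74 and 1.72 in replicates 2 and 3, and the part of either in the differences below was not tested.

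Between the cacti this level was 9.43 ± 0.140 on organ pipe (SD, n = 5) and 9.62 ± 0.320 on agria (SD, n = 4), and the groups overlapped over the whole organ pipe range. The difference of -0.19 had an exact two-sided permutation p of 0.254 (adjusted p = 0.381 over 3 array measures, the smallest possible p being 0.0159). It was between -0.32 without the agria array of 15 days, replicate 1, and -0.086 without replicate 3 of that group, and the difference in array SD was 0.050 and 0.014 without these same arrays, their extremes over the 9 arrays left out. The strongly female-biased transcripts were at 12.72 ± 0.124 on organ pipe and 12.70 ± 0.191 on agria (SD, n = 5 and 4), with an exact permutation p of 0.873. Their highest level, 12.93, was that of the only agria array of 16 days, and these permutation tests had no term for the day. Array SDs were 1.80 ± 0.0257 on organ pipe and 1.77 ± 0.0520 on agria (exact permutation p = 0.222 with n = 5 and 4). Virgin females spread over a similar range for the male-biased class, 9.22 to 9.98 on organ pipe (n = 6) and 9.28 to 10.00 on agria (n = 8).

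**Figure D4:**
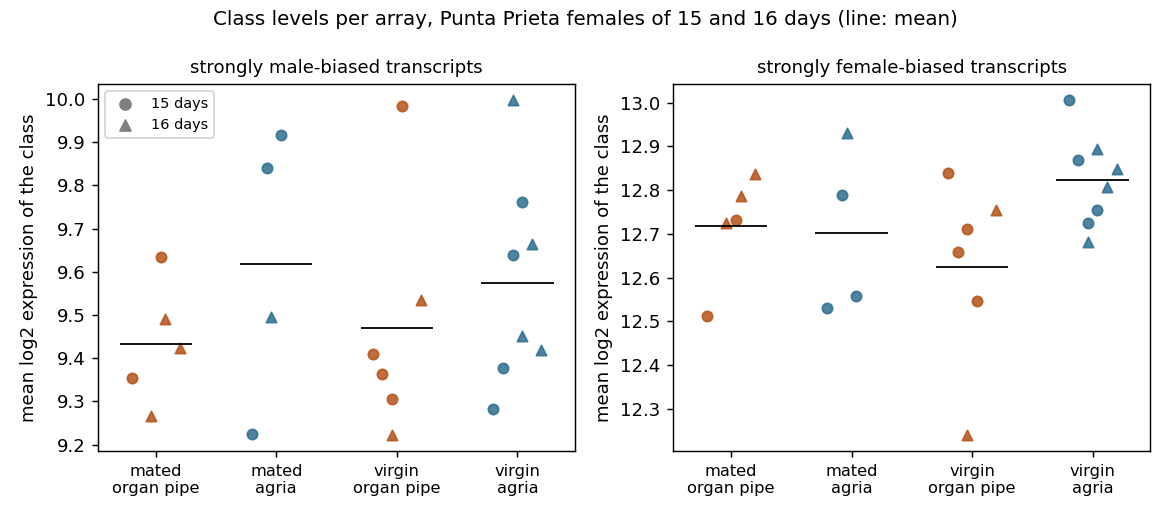
Mean log2 expression (y axis) of the strongly male-biased (left panel) and strongly female-biased transcripts (right panel) in each Punta Prieta female array of 15 (circles) and 16 days (triangles), organ pipe in orange and agria in blue, with the mean of each group as a line. In mated females the agria arrays of the left panel reach from 9.22 to 9.92 and enclose the organ pipe arrays at 9.27 to 9.63.

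By class, the strongly male-biased transcripts had the lowest differences of the 5 classes. Their median was -0.16, with 1271 of 1471 negative (86.4%), where 52.3% of all transcripts were negative. None passed the adjusted test, and at an unadjusted p below 0.05 there were 18 lower, of 53 among all transcripts (0.365%), and 1 higher, of 44 (0.303%). The 326 strongly female-biased transcripts had a median of -0.065 (5 of those 44 higher and 2 of those 53 lower), and its sign turned to 0.016 without the day term. The 4847 moderately female-biased transcripts had a median of -0.022, the 6584 with little sex bias 0.028 and the 1300 moderately male-biased 0.013. Members of a class rise and fall together across arrays, so their number adds no replicates. The median of the strongly male-biased class stayed negative without each array in turn, between -0.30 without the agria array of 15 days, replicate 1, and -0.067 without the organ pipe array of 15 days, replicate 1.

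That agria array also weighed most on the number of small p-values. Without it 2777 transcripts had an unadjusted p below 0.05, 1124 higher and 1653 lower on organ pipe, and 552 of those lower were strongly male-biased. Even so 0 passed the adjusted test in limma, the smallest adjusted p being 0.217. Without any other array the number was between 39 and 657, the highest without the organ pipe array of 15 days, replicate 2.

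Transcripts that answered to the cactus in other flies were followed in the mated females. Of the 5 other groups with arrays on both cacti at 15 and 16 days, each tested on its own, Las Bocas virgin males (n = 8 on each cactus) alone had transcripts past the adjusted threshold, 170 higher and 5 lower on organ pipe (1.2% of all). At an unadjusted p below 0.05 they had 7.66% of transcripts, Punta Prieta virgin males 1.36% and Las Bocas virgin females 1.38%. These groups share no array with the mated females. Of the 170, 154 were higher on organ pipe in the mated females, with a median difference of 0.14 against -0.0073 over all transcripts, although 0 passed the adjusted test and 1 had an unadjusted p below 0.05. Of their number 117 have little sex bias and 33 are moderately male-biased. Their mean level per array was 12.28, 11.95, 12.15, 12.25 and 12.07 on organ pipe, against 12.28, 11.98, 11.92 and 11.86 on agria. The agria array of 15 days, replicate 1, was as high as any organ pipe array, and the other 3 lay among or below the lowest. The agria array of 14 days, at 12.43, was above the organ pipe arrays of 17 days, at 12.06 and 12.32. The median was 0.044 with 105 of 170 positive without the agria array of 16 days, the only one of its day, and lay between 0.075 without the organ pipe array of 15 days, replicate 1, and 0.26 without replicate 2 of that group when any other array was left out.

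Other groups did not share a direction for these 170. Punta Prieta virgin females had a median of 0.19, with 142 positive and 69 higher at an unadjusted p below 0.05, where 42.4% of all transcripts were positive in that group and 1176 of 14528 were higher. In Punta Prieta virgin males the median was 0.22, with 163 positive. Punta Prieta mated males had a median of -0.15, with 134 negative, where 43.6% of all transcripts were negative, and -0.15 with 143 negative without 1 array described below. Las Bocas virgin females had a median of 0.015, with 91 positive, and of 0.038, with 97 positive, without an agria array of 16 days whose description gives 15 days. The 5 transcripts lower in Las Bocas virgin males had a median of 0.035 in the mated females. Whether the groups differ in the 170 as a list was not tested.

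A list of transcripts that responded to mating was taken from Las Bocas females on agria (6 mated and 11 virgin arrays), where 30 were higher and 11 lower after mating. Of the 30, 14 are strongly and 9 moderately female-biased. In Punta Prieta mated females 27 of the 30 were higher on organ pipe, with a median of 0.17, and 6 had an unadjusted p below 0.05. Of all 14528 transcripts, 6928 were higher and 44 were so at that p (0.303%). Virgin females of the population had a like difference for these 30, with a median of 0.14 and 21 positive. In them 7 of the 30 were higher at an unadjusted p below 0.05, as were 1176 of all transcripts. The mean level of the 30 in mated females was 13.02, 13.03, 12.97, 12.98 and 12.74 on organ pipe, against 12.79, 13.03, 13.02 and 12.53 on agria, so 2 of the 4 agria arrays were as high as the organ pipe arrays. Both cacti stood well above the virgin females of the population, which averaged 12.03 ± 0.271 on organ pipe (SD, n = 6) and 11.83 ± 0.228 on agria (SD, n = 8). Without the agria array of 16 days the median was 0.059, with 18 of 30 positive, and without the day term it was 0.085, with 21 positive. In the arrays of other days the order was the opposite, with 12.54 and 12.47 on organ pipe at 17 days against 12.76 on agria at 14 days. The 11 that were lower after mating had a median of 0.16, with 9 positive and 0 with an unadjusted p below 0.05 in limma. Without the Las Bocas array whose description and title give different days, the first list had 28 members and a median of 0.20, with 25 positive.

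**Figure D5:**
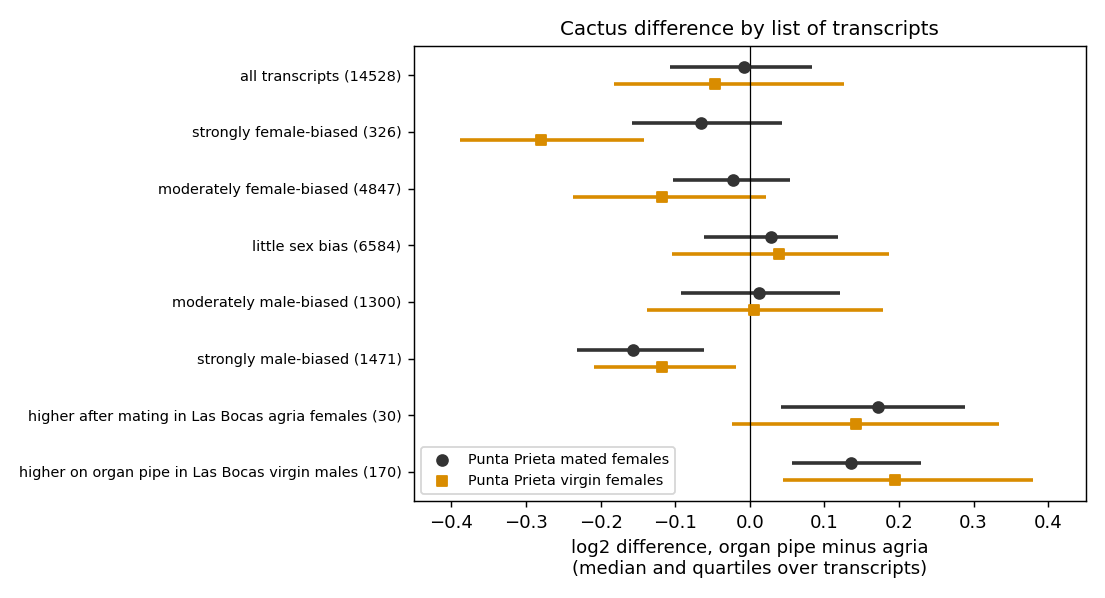
Median and quartiles over transcripts (x axis, log2 difference of organ pipe minus agria) of each list (y axis, number of transcripts in brackets), in Punta Prieta mated females (black circles) and virgin females (orange squares). The strongly male-biased class has medians of -0.16 in mated and -0.12 in virgin females, while that of the strongly female-biased class is at -0.065 in mated and -0.28 in virgin females.

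Virgin females of the same population are the nearest comparison, with 6 arrays on organ pipe and 8 on agria at the same days. On their own they had 0 transcripts past the adjusted threshold in limma (smallest adjusted p = 0.0720), but 3354 at an unadjusted p below 0.05 (23.1%), of which 2178 were lower on organ pipe. The median size of a difference was 0.16, against 0.095 in mated females. Strongly female-biased transcripts had a median of -0.28 in virgins, with 280 of 326 negative, where all transcripts had a median of -0.046 with 57.6% negative. The cactus differences of mated and virgin females correlated at r = 0.501 across transcripts (genes are no replicates of each other). The leading axes of variation among arrays of the 2 groups were also alike (r = 0.933 between the loadings). In mated females the loadings also correlated with the cactus difference itself (r = -0.783 across transcripts), and the part of this axis in the correlation between the groups was not tested. When mated and virgin females were fitted together with 1 estimate of the spread, 477 transcripts passed in virgins (135 higher, 0.929%, and 342 lower, 2.35%) and 0 in mated females (114 at an unadjusted p below 0.05). In the mated females 127 of those 135 were higher on organ pipe, with a median of 0.13, and 298 of the 342 were lower, with a median of -0.078. Only 2 and 3 of them had an unadjusted p below 0.05. These lists were chosen by their values in virgins, which enlarges the virgin differences, so sizes in mated and virgin females cannot be compared on them. The joint fit also shared its estimate of the spread with the mated arrays, so the lists are not independent of those arrays.

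The difference between mated and virgin females was tested directly. With 23 arrays 0 transcripts had a cactus difference that differed between mated and virgin females at an adjusted p below 0.05 (0%, smallest adjusted p = 0.842 in limma), and 708 did at an unadjusted p below 0.05, 552 more positive in mated females (3.8%) and 156 more negative (1.07%). The median half-width of the interval of this contrast was 0.42. So a smaller response of mated females was not shown at this number of arrays. Among transcripts whose cacti did not overlap in mated females, FBtr0166201 (0.52, SE 0.187) and FBtr0167793 (0.55, SE 0.262) had the largest positive contrasts and FBtr0161657 (-0.65, SE 0.196) and FBtr0172957 (-0.58, SE 0.228) the largest negative ones, by moderated t, all with an adjusted p of 0.842 in limma. The cactus difference of mated females is a part of this contrast, so choosing by it enlarges these estimates.

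Mated males of the population offer the same contrast in the other sex, with 7 arrays on organ pipe and 4 on agria. The organ pipe mated male array of 16 days, replicate 2, went against its label: its strongly female-biased transcripts were at 12.66 and its strongly male-biased ones at 9.42, both within the range of the mated females, whereas the other 10 arrays had 9.78 to 9.88 and 12.83 to 13.14. On all 11 arrays 0 transcripts passed for the cactus in limma, where 138 had an unadjusted p below 0.05 (0.95%), and without it 0 passed, where 696 had one (4.79%). The cactus difference differed between mated females and mated males for 0 transcripts (0%, 122 at an unadjusted p below 0.05, 0.619% of transcripts positive and 0.22% negative), and for 0 without that array (356). FBtr0162339 (0.41, SE 0.165) and FBtr0175355 (0.29, SE 0.156) had the most positive and FBtr0162570 (-0.46, SE 0.186) and FBtr0168450 (-0.54, SE 0.247) the most negative contrasts of females minus males by moderated t among the transcripts named by the same rule, all at an adjusted p of 0.9999 in limma. Here too the choice by cacti that did not overlap in mated females enlarges the estimates.

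Development day was the other term of the fit. Between 16 and 15 days 0 transcripts passed in limma (0%, smallest adjusted p = 0.536), and 1076 had an unadjusted p below 0.05, 740 higher at 16 days (5.09%) and 336 lower (2.31%). The arrays of the 2 days did not overlap for 622 transcripts (4.28%). FBtr0172158 was at 10.49, 10.44, 10.59 on organ pipe and 10.59 on agria at 16 days, against 9.71 and 9.96 on organ pipe and 9.95, 10.05 and 9.98 on agria at 15 days. Its difference was 0.64 (SE 0.0930, unadjusted p = 6.23e-05, adjusted p = 0.536 in limma). That it had 1 direction on both cacti follows from its choice among transcripts whose days did not overlap. FBtr0173252 was higher at 16 days by 0.78 (SE 0.129, adjusted p = 0.649 in limma). Both transcripts named for a lower level at 16 days are moderately female-biased. FBtr0166454 had a difference of -0.80 (SE 0.118, adjusted p = 0.536 in limma), and FBtr0161591 had one of -0.54 (SE 0.108, adjusted p = 0.649 in limma). The 16 day agria group is 1 array, so the day on agria rests on it.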

How the data were processed

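The log2 expression values deposited by the authors were used, 1 for each of 14528 transcripts and 137 arrays, made with RMA per the submitters' processing notes. RMA corrects background, equalises the arrays' distributions and summarises probes, so a change of total RNA per fly is not visible in them and differences of dim transcripts are compressed. No source used here gives its version or settings. The values ran from 5.83 to 15.9, with 0 missing and 0 identical arrays. Raw scanner output and slide positions were not analysed here, and slide was not tested as a batch.

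Groups came from titles and characteristics. Each comparison was fitted with limma 3.58.1 in R 4.3.3 (lmFit and eBayes) on its own arrays, with the day (15 or 16) as a term, and adjusted over all transcripts by Benjamini-Hochberg at a threshold of 0.05. The tests of a difference between groups were contrasts in 1 fit. Array measures had an exact permutation test over the 126 splits of 9 arrays, without a term for the day. Named transcripts were, where none passed, the 2 of each direction with the largest moderated t among those whose groups did not overlap. The comparison, the lists and this rule were chosen with earlier results of these data known.

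Transcripts carry IDs only, of which 0 of 14528 matched the 15130 genes of the reference table, so the gene lists and cell type markers that were planned for named genes were not run, and sex-bias classes from virgin flies stand in for tissue markers.

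Replicate numbers are shared between the cacti. Deviations from the cactus means correlated at r = 0.476, 0.542 and 0.325 in the 3 pairs of the same number and day, all above 0.1 although such arrays also share the day, so the replicate block was taken as a pairing and fitted as an alternative. Not every array matched its own number best: agria 15 days, replicate 1, correlated at 0.503 with organ pipe 16 days, replicate 1, and organ pipe 15 days, replicate 2, at 0.555 with agria 15 days, replicate 3. Other alternatives were array weights, scalings, a filter on the dimmest 25% of transcripts, a variance trend, other sets of days and each array left out.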

Additional observations from a re-analysis of the deposited data

Results flagged for a closer look

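Among 36 sets of 4 to 10 arrays checked for the named transcripts, 3 held an array far from the others of its group, where chance gives about 1 in 20. For FBtr0168287, the agria array of 15 days, replicate 2, stood at 8.87, and the other agria arrays lay between 9.27 and 9.31. FBtr0172158 was at 10.59 in the agria array of 16 days, replicate 1, and between 9.95 and 10.05 in the other agria arrays. FBtr0166454 was at 12.13 in that array and between 12.58 and 12.65 in the others. That array is the only agria array of 16 days, and these last transcripts were named for a difference between the days.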

How the results depend on the processing

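The cactus test gave 0 calls under all 11 alternatives (42 to 1942 at an unadjusted p below 0.05, the highest with array weights; 1 alternative, the 16 day arrays only, has a single agria array, assumed to vary like organ pipe) and without each array in turn (0 to 0 calls, 39 to 2777). With the replicate block it gave 0 calls and 1073 at an unadjusted p below 0.05, and the block changed no other call. The day gave 0 calls in 6 alternatives and 9 fits without an array (unadjusted 771 to 1674, and 456 without organ pipe 15 days, replicate 1, to 2467 without agria 15 days, replicate 1). The contrast with virgin females gave 0 in 7 and 23 (545 to 1147, and 317 without the virgin organ pipe array of 16 days, replicate 1, to 1491 without the mated agria array of 16 days), and that with males 0 in 7 and 20 (110 to 2338, the highest with array weights, and 38 without the female organ pipe array of 15 days, replicate 1, to 460 without the female agria array of 15 days, replicate 1). The named transcripts kept their direction under every setting that could be run. They were chosen for groups that did not overlap and for a large moderated t, so this was largely fixed by the choice. The level of strongly female-biased transcripts, 0.02 higher on organ pipe, was -0.022 with classes over 8-fold, -0.0042 with the 15 day arrays only and -0.041 to 0.092 without each array. The median of that class was 0.016 without the day term, 0.0095 with the 15 day arrays only and -0.13 to 0.0095 without each array. The cause was not tested. With 1 agria array of 16 days, leaving it out lowered the share of transcripts with an interval within 2-fold to 89.8%, and that within 1.41-fold to 48.3%.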
